A study of Homo sapiens with 6 samples.

Results

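The genes described here are 10 members of the transforming growth factor beta (TGF-beta) pathway, measured in BxPC-3 cells, a human pancreatic cancer cell line. They were taken by symbol from the 26255 gene symbols of the RNA-seq tables: the ligand genes TGFB1 and TGFB2, the receptor genes TGFBR1 and TGFBR2, the signal carriers SMAD2 and SMAD3, the inhibitors SMAD7 and SKIL, and TGFBI and ID1, whose transcription responds to ligands of this family. All 10 were detected in every library. Cells without treatment (Parent), cells given the negative control NC-1 and cells given the microRNA miR-4711-5p were each represented by 2 libraries, and the study took RNA 36 h after transfection. Nothing states that the 2 libraries of a group came from separate cultures, so the p-values measure the spread between these libraries, which may be technical. All 3 groups are the same single cell line. The miR-4711-5p libraries were set against each control and NC-1 was set against Parent, so the comparisons share libraries.

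In this pathway a secreted ligand binds a type II receptor (TGFBR2), which activates a type I receptor (TGFBR1). The type I receptor phosphorylates SMAD2 and SMAD3, which enter the nucleus with SMAD4 and change the transcription of target genes. SMAD7 blocks the receptor step and SKIL, also called SnoN, represses SMAD-dependent transcription. In pancreatic cancer the pathway is known for frequent loss of SMAD4, and BxPC-3 is known to lack this gene. SMAD4 was listed at 0 FPKM (fragments per kilobase of exon, scaled to the mapped fragments of the library) in all 6 libraries.

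The sequence of the microRNA and its matches in the members are shown because a microRNA recognises messenger RNAs mainly through its seed, bases 2 to 8 from its 5′ end. The mature strand is given by RefSeq (GRCh38.p14, chr1:59733269-59733291, minus strand), 5′ to 3′, with the seed in capitals.
hsa-miR-4711-5p: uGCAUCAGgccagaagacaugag
A search for 3 letter strings was made on the transcribed strand of the 3′ untranslated regions (UTRs) that GENCODE annotates on hg19: CTGATGC, which pairs with the whole seed; CTGATGCA, which is the same string with an A after it; and TGATGCA, which lacks the first letter. The 3 strings overlap, and each place was counted once under the longest match. At least 1 string was present in 4 of the 10 members (TGFB2, TGFBR2, SMAD2 and SMAD3). Of 10593 tested genes whose symbol matched an annotated UTR, 20.6% held a string in any annotated UTR and 18.5% in their longest one. The matched sites lie in 3′ UTR exons and are printed in the direction of the transcript, with the match in capitals.
TGFB2 site: aaaacacctgTGATGCAataagactat
TGFBR2 site: tgcccctgaaCTGATGCttcctggaaa
SMAD2 site a: ctctacagttCTGATGCgatttttctg
SMAD2 site b: attttggggaCTGATGCccttaaaggt
SMAD2 site c: attgggtgtcCTGATGCAgactgagcag
SMAD2 site d: gcggctgttgCTGATGCAtgggactatt
SMAD3 site a: gctccagattCTGATGCAtacggctata
SMAD3 site b: gagaggcttcCTGATGCctcatctgca
The TGFB2 match is at chr1:218617390-218617396 on the plus strand and the TGFBR2 match at chr3:30733174-30733180 on the plus strand. The SMAD2 matches are on the minus strand at chr18:45365573-45365579, chr18:45360931-45360937, chr18:45360042-45360049 and chr18:45337181-45337188, within an annotated UTR of 32870 bases. The SMAD3 matches are on the plus strand at chr15:67483788-67483795 and chr15:67484555-67484561, within a UTR of 4633 bases. No string was found in the annotated 3′ UTRs of TGFB1, TGFBR1, SMAD7, TGFBI, SKIL and ID1. A match is a string of letters and not a measured binding site, and which UTR ends the cells use was not measured.

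FPKM sums differed by group, at 543074 and 550772 in Parent, 515348 and 515688 in NC-1, and 493145 and 499659 in miR-4711-5p libraries. Symbols above 0 numbered 16597 and 16685 in Parent, 16605 and 16808 in NC-1, and 17146 and 17305 in miR-4711-5p libraries. The 5 epithelial marker genes lay between 91.6 and 1842 FPKM in all libraries, with KRT19 at 1559 to 1700 in Parent, 1254 to 1294 in NC-1 and 890 to 912 in miR-4711-5p libraries, 5 of 6 fibroblast markers stayed under 1 FPKM (COL1A1 reached 2.35), and all 4 leukocyte markers were at or under 0.139, with TYROBP at 0. Of the 3 endothelial markers VWF and PECAM1 stayed under 0.32, whereas the summed level of the list was 1.33 to 1.39 in Parent, 3.23 to 3.53 in NC-1 and 0.649 to 0.775 in miR-4711-5p libraries through CDH5. This order, with NC-1 highest, is also that of several members, and its part in their levels was not tested. KLF5 and TFDP1, which the study examined as targets of this microRNA, served as a check of the treatment. KLF5 was at 114 and 124 FPKM in Parent, 115 and 120 in NC-1, and 66.8 and 59.2 in miR-4711-5p libraries. TFDP1 was at 44.7 and 48.6, 38.7 and 44.02, and 20.6 and 19.9 in the same order.

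Fold changes were tested with limma on log2(FPKM + 1) in the 12040 genes whose mean over all libraries reached 1 FPKM, and a gene was called when its p-value, adjusted by Benjamini-Hochberg over those genes, was below 0.05. All 10 members passed the filter. This scale understates the change of low genes, and folds given as "-fold" are ratios of group means. With 2 libraries against 2, the smallest p of an exact permutation test is 0.333. No such test was run, and single genes were tested with limma alone.

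Of the 10 members, ID1, TGFBI and SMAD3 fell against both controls, SMAD3 with a call against Parent that few alternative settings kept, and TGFB2 rose against both. TGFBR2 was higher than in Parent and lower than in NC-1, and SKIL was called lower against NC-1 alone. TGFBR2, SMAD3 and SKIL were higher in NC-1 than in Parent. Against Parent, 2 members were higher (TGFB2, TGFBR2) and 3 lower (SMAD3, TGFBI, ID1), which is 50.0% of the members. Among all genes tested 43.4% were called, 18.7% higher and 24.7% lower. Against NC-1, 1 member was higher (TGFB2) and 7 were lower (TGFBR1, TGFBR2, SMAD2, SMAD3, TGFBI, SKIL and ID1), or 80.0%, where 39.6% of all genes were called, 18.4% higher and 21.2% lower. In NC-1 against Parent, 3 members were higher (TGFBR2, SMAD3 and SKIL) and 0 lower, or 30.0%, where 27.2% of all genes were called, 12.1% higher and 15.1% lower. The 0 lower calls by limma were also 0 at an unadjusted p under 0.05. The median log2 fold change of the members was -0.13 against Parent, -0.39 against NC-1 and 0.11 for NC-1 against Parent, beside medians over all genes of -0.01, 0.00 and -0.01. Both miR-4711-5p libraries lay below all 4 control libraries for 6 members, above them for 1 and between or among them for 3. Of all genes tested 26.3% lay below the 4 controls in this way and 23.8% above them. In these bulk libraries, fewer cells that express a gene and less RNA per cell cannot be told apart.

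**Figure D1:**
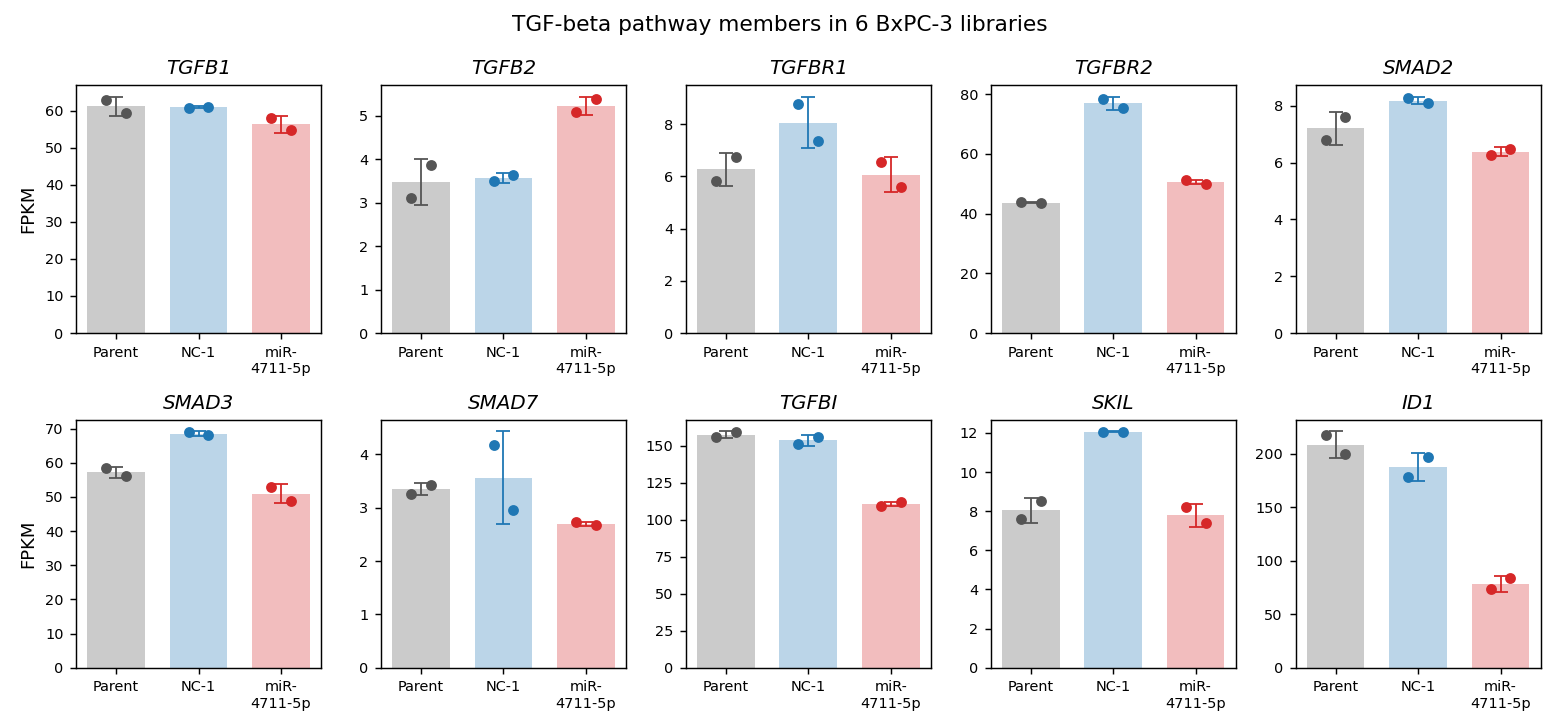
FPKM of the 10 members (vertical axis, from 0, with a scale of its own in each panel) in the Parent, NC-1 and miR-4711-5p groups. Points are the 2 libraries of a group, bars their mean and error lines 1 SD. ID1 and TGFBI are lowest in both miR-4711-5p libraries, TGFB2 is highest there, and TGFBR2, SMAD3 and SKIL are highest in both NC-1 libraries.

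The choice of scale moved these counts. Each library was also rescaled to a common sum, the mean of the FPKM sums of the libraries. The median log2 fold change over all genes then moved to 0.11 against Parent, 0.05 against NC-1 and 0.06 for NC-1 against Parent. The calls over all genes went from 2255 higher and 2975 lower to 4014 higher and 1775 lower against Parent, from 2214 and 2549 to 2925 and 2083 against NC-1, and from 1456 and 1823 to 2325 and 1000 for NC-1 against Parent. The directions given below held under this scaling and under a median-of-ratios scaling wherever a member was called.

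**Figure D2:**
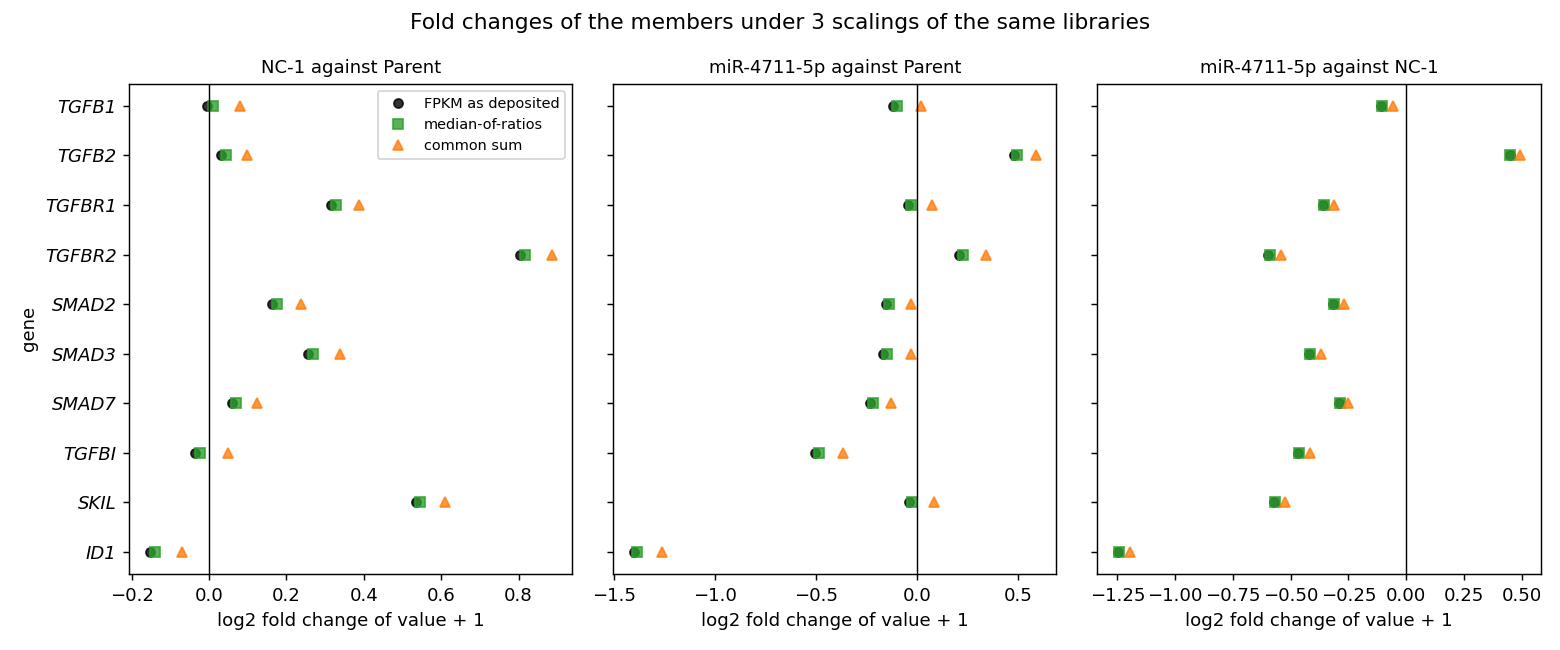
Log2 fold change of value + 1 (horizontal axis) of the 10 members in each comparison, computed from FPKM as deposited (circles), after median-of-ratios scaling (squares) and after scaling to a common sum (triangles). The common sum shifts the members to the right in every panel, by about the shift of the median gene, and ID1, TGFBI and TGFB2 keep their side of 0 in both comparisons of miR-4711-5p.

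TGFB1 (chr19:41807492-41859827, hg19, minus strand) and TGFB2 (chr1:218518678-218617961, plus strand) encode secreted ligands. TGFB1 was the more abundant per length. It was at 62.9 and 59.2 FPKM in Parent, 60.7 and 61.0 in NC-1, and 57.9 and 54.6 in miR-4711-5p libraries. The miR-4711-5p libraries were the 2 lowest, by a small margin that was not called. The log2 difference was -0.12 against Parent (95% interval -0.24 to 0.00, adjusted p = 0.108) and -0.11 against NC-1 (-0.23 to 0.01, adjusted p = 0.126). Its level in NC-1 differed from Parent by -0.00 (-0.13 to 0.12, adjusted p = 0.956).

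TGFB2 was at 3.11 and 3.86 FPKM in Parent, 3.49 and 3.64 in NC-1, and 5.08 and 5.38 in miR-4711-5p libraries. Both miR-4711-5p libraries lay above all controls, and the control groups overlapped. TGFB2 rose 1.502-fold against Parent (log2 fold change 0.48 ± 0.098 SE, adjusted p = 0.00712) and 1.47-fold against NC-1 (0.45, adjusted p = 0.0103). The call against Parent was lost without miR-4711-5p replicate 2 (adjusted p = 0.052), and that against NC-1 without the same library (0.0711) or without NC-1 replicate 1 (0.0529). Exons of both ligand genes overlap those of other genes, HNRNPUL1 on the other strand for TGFB1 and TGFB2-AS1 (other strand) and TGFB2-OT1 (same strand) for TGFB2, so reads in those exons may be shared.

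TGFBR1 (chr9:101866320-101916474, plus strand) and TGFBR2 (chr3:30648093-30735634, plus strand) encode the type I and type II receptors. TGFBR2 had the widest gap between the 2 control groups of all members. It was at 43.7 and 43.6 FPKM in Parent, 78.5 and 75.5 in NC-1, and 51.2 and 50.0 in miR-4711-5p libraries. The 3 groups did not overlap, and miR-4711-5p lay between the controls, nearer to Parent. TGFBR2 was 1.76-fold higher in NC-1 than in Parent (log2 fold change 0.80 ± 0.044 SE, adjusted p = 0.000271). Under miR-4711-5p it was 1.16-fold higher than in Parent (0.21, adjusted p = 0.00831) and 1.52-fold lower than in NC-1 (-0.60, adjusted p = 8.5e-05). The direction for miR-4711-5p thus depends on the control, and the call against Parent was lost without miR-4711-5p replicate 1 (adjusted p = 0.0641).

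TGFBR1 was at 5.83 and 6.73 FPKM in Parent, 8.76 and 7.36 in NC-1, and 6.55 and 5.58 in miR-4711-5p libraries. The NC-1 libraries were the 2 highest, whereas Parent and miR-4711-5p overlapped. Against NC-1 it was 1.33-fold lower under miR-4711-5p (-0.36 ± 0.11 SE, adjusted p = 0.0359). This call held in 8 of 16 alternative settings and was lost, among others, without NC-1 replicate 1 (0.183) or without either miR-4711-5p library (0.0517 and 0.198). Against Parent the difference was -0.04 (95% interval -0.30 to 0.21, adjusted p = 0.774), and NC-1 differed from Parent by 0.31 (0.06 to 0.57, adjusted p = 0.0716).

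SMAD2 (chr18:45335328-45457517, minus strand) and SMAD3 (chr15:67356101-67487511, plus strand) encode the proteins that the TGF-beta receptors phosphorylate. Both were lowest in the miR-4711-5p libraries and highest in NC-1. The 8-letter string lies in the 3′ UTR of 3 (site c) and 1 (site d) of 5 coding transcripts of SMAD2, and of 8 of 12 of SMAD3. Its part in their levels was not tested. SMAD3 was at 58.4 and 56.0 FPKM in Parent, 68.9 and 68.0 in NC-1, and 52.8 and 48.9 in miR-4711-5p libraries. The 3 groups did not overlap. SMAD3 was 1.35-fold lower under miR-4711-5p than in NC-1 (log2 fold change -0.42 ± 0.052 SE, adjusted p = 0.000863), a call that held without any 1 library. Against Parent it was 1.12-fold lower (-0.17, adjusted p = 0.037), and this call held in 5 of 16 alternatives, with adjusted p from 0.0316 to 0.671. Under the common sum the difference was -0.03. The call was also lost without Parent replicate 1 (0.148), Parent replicate 2 (0.0616), NC-1 replicate 1 (0.0523), NC-1 replicate 2 (0.0511) or miR-4711-5p replicate 2 (0.205). NC-1 was 1.20-fold above Parent (0.26, adjusted p = 0.0133), which was lost without Parent replicate 2 (0.0619) or NC-1 replicate 1 (0.0627). SMAD3 shares exon positions with an unnamed gene on the other strand.

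SMAD2 was at 6.81 and 7.62 FPKM in Parent, 8.28 and 8.09 in NC-1, and 6.27 and 6.49 in miR-4711-5p libraries. The 3 groups did not overlap, but the Parent libraries lay close to both others. SMAD2 was 1.28-fold lower under miR-4711-5p than in NC-1 (-0.32 ± 0.070 SE, adjusted p = 0.011). The call was lost without NC-1 replicate 1 (0.0568) or miR-4711-5p replicate 1 (0.0724). The difference from Parent was -0.15 (95% interval -0.32 to 0.01, adjusted p = 0.121).

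SMAD7 (chr18:46446223-46477335, minus strand) and SKIL (chr3:170075130-170114623, plus strand) encode inhibitors of the pathway whose own transcription is known to respond to it. SMAD7 was at 3.26 and 3.42 FPKM in Parent, 4.17 and 2.95 in NC-1, and 2.73 and 2.67 in miR-4711-5p libraries. Both miR-4711-5p libraries were below the controls, but the NC-1 pair was the most spread of all members relative to its mean, and neither difference was called. It was -0.23 against Parent (95% interval -0.54 to 0.07, adjusted p = 0.19) and -0.29 against NC-1 (-0.59 to 0.02, adjusted p = 0.117). Without NC-1 replicate 2 the latter became -0.48 and was called (adjusted p = 0.0155).

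SKIL was at 7.58 and 8.50 FPKM in Parent, 12.1 and 12.1 in NC-1, and 8.22 and 7.38 in miR-4711-5p libraries. Parent and miR-4711-5p overlapped and both NC-1 libraries stood above them. SKIL was 1.501-fold higher in NC-1 than in Parent (log2 fold change 0.53 ± 0.076 SE, adjusted p = 0.004) and 1.55-fold lower under miR-4711-5p than in NC-1 (-0.57, adjusted p = 0.00119). Against Parent the difference was -0.04 (95% interval -0.22 to 0.14, adjusted p = 0.707).

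TGFBI (chr5:135364677-135399507, plus strand) encodes a secreted matrix protein first found as a gene induced by TGF-beta. It was at 156 and 159 FPKM in Parent, 151 and 156 in NC-1, and 110 and 112 in miR-4711-5p libraries. The 4 control libraries lay together and the miR-4711-5p pair stood apart below them. TGFBI fell 1.42-fold against Parent (log2 fold change -0.51 ± 0.041 SE, adjusted p = 0.000109) and 1.39-fold against NC-1 (-0.47, adjusted p = 0.000182). NC-1 differed from Parent by -0.04 (95% interval -0.13 to 0.06, adjusted p = 0.534).

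ID1 (chr20:30193086-30194318, plus strand) encodes an inhibitor of basic helix-loop-helix factors and is best known as a target of the bone morphogenetic proteins (BMPs), ligands of the same family. It was the most abundant member per length in Parent, above 96.9% of the tested genes, and had the largest change of the 10 under miR-4711-5p. It was at 217 and 200 FPKM in Parent, 178 and 197 in NC-1, and 73.4 and 83.5 in miR-4711-5p libraries. ID1 fell 2.66-fold against Parent (log2 fold change -1.40 ± 0.078 SE, adjusted p = 2.1e-05) and 2.39-fold against NC-1 (-1.25, adjusted p = 3.81e-05). Each of these calls held in all 16 alternatives. NC-1 differed from Parent by -0.15 (95% interval -0.34 to 0.03, adjusted p = 0.186).

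**Figure D3:**
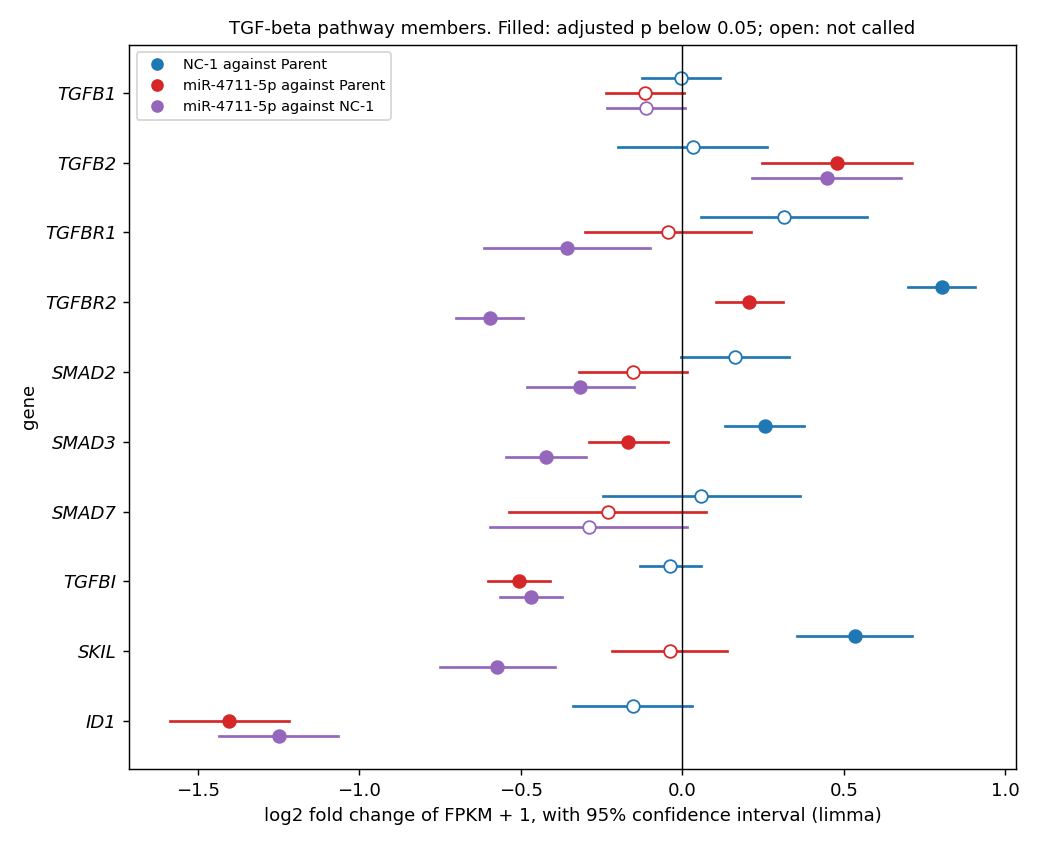
Limma log2 fold changes of FPKM + 1 (horizontal axis) of the 10 members in 3 comparisons, with 95% confidence intervals as lines. Filled circles have an adjusted p below 0.05. ID1 (-1.40 and -1.25) and TGFBI fall in both comparisons of miR-4711-5p, TGFB2 rises in both, and TGFBR2 lies at 0.80 for NC-1 against Parent and at -0.60 for miR-4711-5p against NC-1.

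The members with a seed string did not move as one. SMAD3 was lower than in both controls, with a call against Parent that held in 5 of 16 alternatives. SMAD2 and TGFBR2 were lower than in NC-1, TGFBR2 was higher than in Parent, and TGFB2 was higher than in both controls. Of the members without a string in their annotated UTRs, ID1 and TGFBI fell against both controls, TGFBR1 and SKIL were lower than in NC-1, and TGFB1 and SMAD7 were not called. The calls of SMAD2, TGFB2 and TGFBR1, and that of TGFBR2 against Parent, were each lost when a certain single library was left out.

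A further 63 genes of the pathway, in 7 lists, were read in the same fit, of which 52 passed the filter. Against Parent 20 were higher and 9 lower (55.8% called), against NC-1 13 were higher and 15 lower (53.8%), and in NC-1 against Parent 17 were higher and 2 lower (36.5%). The shares over all genes were 43.4%, 39.6% and 27.2%. Their median log2 fold changes were 0.13, 0.02 and 0.14. Under the common sum the splits became 33 higher and 3 lower against Parent, 16 and 11 against NC-1, and 28 and 1 for NC-1 against Parent. At most 3 genes per list were chosen to be named, from those called against both controls whose miR-4711-5p values all lay above or all below the 4 control values. ITGAV, BMPR1B and SMAD1 are mentioned beside them as genes of the same kind.

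Of 10 genes for ligand release and activation, which also include the third ligand gene, 5 were higher and 3 lower against Parent, and 3 higher and 4 lower against NC-1. The shares called were 80.0% and 70.0%, beside 43.4% and 39.6% of all genes. ITGB6 and ITGB8, genes of integrin subunits that activate latent TGF-beta, moved in opposite directions. ITGAV, a further integrin subunit gene, was 1.41-fold above Parent (limma adjusted p = 0.000539). It was 1.04-fold above NC-1, which was not called (0.463). ITGB6 was at 21.2 and 20.7 FPKM in Parent, 25.7 and 28.7 in NC-1, and 11.2 and 11.2 in miR-4711-5p libraries, 1.87-fold lower than in Parent (adjusted p = 6.99e-05, limma) and 2.42-fold lower than in NC-1 (1.76e-05). ITGB8 was at 4.94 and 5.48, 8.34 and 8.69, and 15.0 and 14.1 FPKM in the same order, 2.79-fold higher than in Parent (limma adjusted p = 1.64e-05) and 1.71-fold higher than in NC-1 (0.000308). THBS1, a matrix protein that can activate latent ligand, was 1.99-fold and 1.81-fold higher.

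Of 5 tested other ligand genes, 4 were higher against Parent and 4 against NC-1, with 0 lower in either comparison by limma, also at an unadjusted p under 0.05. In each comparison 80.0% were called, beside 43.4% and 39.6% of all genes. GDF15, a stress-induced ligand, was at 35.4 and 34.7 FPKM in Parent, 37.9 and 38.6 in NC-1, and 96.9 and 102 in miR-4711-5p libraries, 2.84-fold higher than in Parent (limma adjusted p = 3.41e-06) and 2.60-fold higher than in NC-1 (5.15e-06). BMP4 was 1.67-fold and 1.70-fold higher. INHBA, which encodes the activin A subunit, was 2.61-fold above Parent and 1.18-fold above NC-1, and was itself 2.21-fold higher in NC-1 than in Parent. Its call against NC-1 (limma adjusted p = 0.0279) was lost without NC-1 replicate 1 (0.095), NC-1 replicate 2 (0.0939), miR-4711-5p replicate 1 (0.172) or miR-4711-5p replicate 2 (0.0596), and without the filter (0.0574).

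Among 8 tested other receptors, ACVR1 and BMPR1A, which encode BMP type I receptors, were lower against both controls. ACVR1 was lower by 1.23-fold and 1.29-fold and BMPR1A by 1.22-fold and 1.20-fold. BMPR1B, another such gene, was 1.23-fold higher than in Parent and 1.10-fold lower than in NC-1. Neither was called (limma adjusted p = 0.0722 and 0.338). Under the common sum both calls against Parent were lost (log2 fold change -0.15, limma adjusted p = 0.0572 for ACVR1, and -0.13, 0.153 for BMPR1A), as was that of BMPR1A against NC-1 (-0.18, 0.0657). The BMPR1A calls were also lost without Parent replicate 1 (0.0591) or 2 (0.0745) against Parent, without NC-1 replicate 1 (0.13) or 2 (0.0506) against NC-1, and without miR-4711-5p replicate 1 (0.0826 and 0.106) or 2 (0.0928 and 0.126) against Parent and NC-1. In the list as a whole 1 was higher and 2 lower against Parent, and 3 were lower and 0 higher against NC-1 (limma). At an unadjusted p under 0.05, 4 were lower and 0 higher against NC-1. The share called, 37.5% in each comparison, was under the 43.4% and 39.6% of all genes. Of 3 tested other SMADs, 2 were lower in each comparison of miR-4711-5p, or 66.7%, beside the 43.4% and 39.6% of all genes called. SMAD5, which carries BMP signals, was at 6.505 and 6.94 FPKM in Parent, 7.63 and 8.002 in NC-1, and 5.27 and 5.26 in miR-4711-5p libraries. It was 1.28-fold and 1.48-fold lower. The inhibitory SMAD6 was 1.46-fold and 1.48-fold lower. The remaining gene, SMAD1, was 1.11-fold and 1.02-fold higher and was not called (limma adjusted p = 0.139 and 0.758). The SMAD5 call against Parent was lost under the common sum (-0.18, limma adjusted p = 0.0623) and without miR-4711-5p replicate 1 (0.0531) or 2 (0.0513). The SMAD6 calls were lost without miR-4711-5p replicate 1 (0.0725 against Parent and 0.0696 against NC-1), without Parent replicate 1 (0.0599) and without NC-1 replicate 2 (0.052).

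The 15 regulators of SMAD activity had 5 higher and 2 lower against Parent and 2 higher and 4 lower against NC-1. These shares, 46.7% and 40.0%, were near the 43.4% and 39.6% of all genes called. TGIF2, a SMAD corepressor, was 1.25-fold and 1.13-fold higher. USP9X, a deubiquitinase of SMAD4, was 1.26-fold and 1.28-fold lower, and the coactivator EP300 was 1.15-fold and 1.17-fold lower, the latter with adjusted p = 0.048 and 0.037 (limma). The EP300 calls held in 5 and 6 of 16 alternatives, with -0.05 (0.511) against Parent under the common sum, and were lost without either Parent or either miR-4711-5p library in both comparisons and without NC-1 replicate 2 against NC-1, with adjusted p up to 0.202 and 0.175. The TGIF2 call against NC-1 held in 9 of 16 and was lost without any 1 library of those groups (0.0531 to 0.159). The USP9X calls were lost against Parent under the common sum (-0.18, 0.0921) and without Parent replicate 1 (0.087), against NC-1 without NC-1 replicate 1 (0.0761), and without miR-4711-5p replicate 2 in both (0.0983 and 0.0892). Seed strings were searched in 17 named genes outside the members and were present in the annotated UTRs of 4, namely ITGB6, BMPR1A, TGIF2 and USP9X.

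Of 10 tested TGF-beta targets, 4 were higher and 0 lower by limma against Parent (1 lower at an unadjusted p under 0.05), and 3 were higher and 2 lower against NC-1. That is 40.0% and 50.0% called, beside 43.4% and 39.6% of all genes. CTGF was at 1.68 and 1.80 FPKM in Parent, 4.94 and 3.70 in NC-1, and 7.13 and 6.77 in miR-4711-5p libraries, 3.99-fold above Parent (limma adjusted p = 8.22e-05) and 1.61-fold above NC-1 (0.00675), the latter lost without miR-4711-5p replicate 1 (0.0519). FN1, the fibronectin gene, was 1.59-fold and 1.67-fold higher. ID3, the only tested gene of the BMP target list, was at 4.0 and 4.31, 4.09 and 3.85, and 6.74 and 6.29 FPKM, 1.57-fold above Parent and 1.64-fold above NC-1 (limma adjusted p = 0.00134 and 0.001). Its direction was opposite to that of ID1, a gene of the same family.

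**Figure D4:**
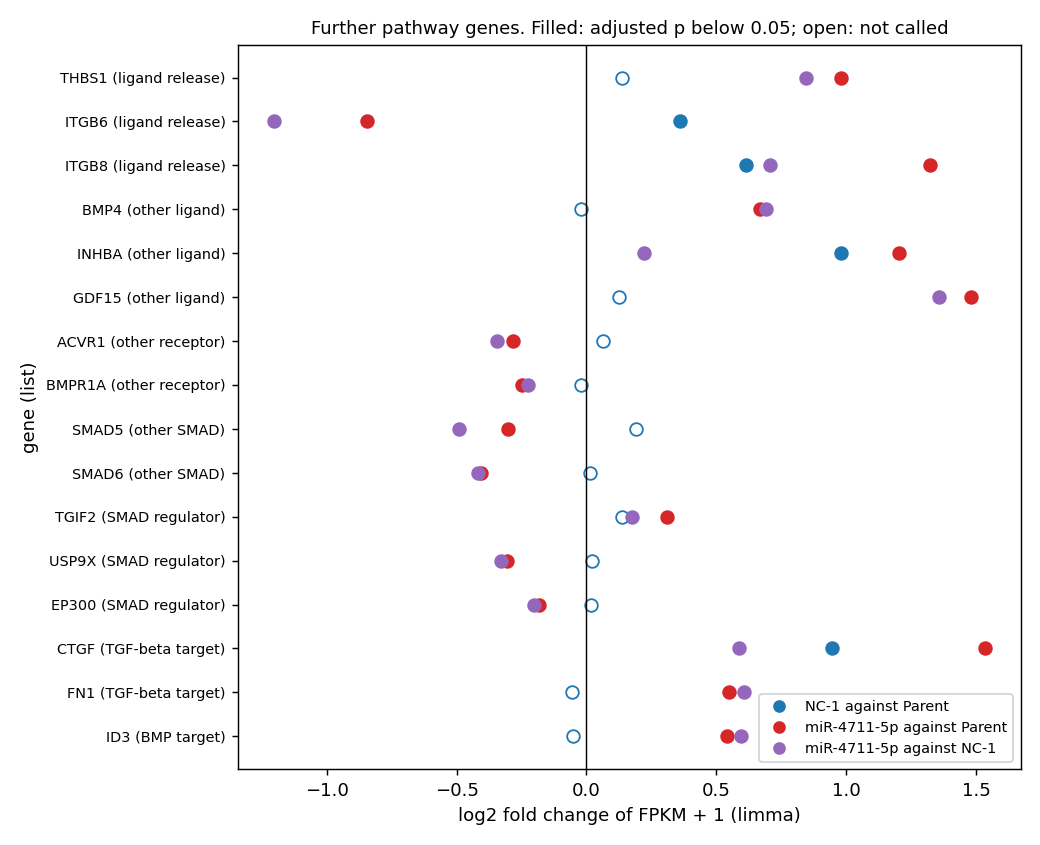
Limma log2 fold changes of FPKM + 1 (horizontal axis) of the 16 tested pathway genes chosen by the naming rule outside the members, with their list in parentheses, in 3 comparisons. Filled circles have an adjusted p below 0.05. GDF15, CTGF, ITGB8 and THBS1 lie to the right of 0 and ITGB6 furthest to the left in both comparisons of miR-4711-5p.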

How the data were processed

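RNA sequencing was performed on 6 BxPC-3 libraries, 2 each of Parent, NC-1 and miR-4711-5p, grouped by their sample titles. The authors prepared stranded mRNA libraries, mapped single-end reads to hg19 and deposited 1 FPKM value per gene symbol and library. Per the labels, TopHat2 2.1.1, Bowtie2 2.3.5.1, SAMtools 1.2 and Cufflinks 2.2.1 with Cuffdiff were used. The study's methods name other versions of the first 3, and Cuffnorm 2.2.1 for the FPKM. The annotation and the strand setting of the counting are not given in the sources used here. FPKM hold no read counts, so the depth in reads is unknown and no counting intervals are given. A relative depth was estimated as the most common ratio to Parent replicate 1 among genes under 0.1 FPKM. It was 0.873 in Parent replicate 2, 0.751 and 0.857 in NC-1, and 1.076 and 1.207 in miR-4711-5p libraries. Depth thus differed by group, and its part in the values of low genes was not tested.

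Differences were tested two-sided with limma 3.58.1 in R 4.3.3 (lmFit, contrasts.fit and eBayes with trend) on log2(FPKM + 1), in all 6 libraries in 1 fit. Genes whose mean over the libraries reached 1 FPKM were kept, and p-values were adjusted by Benjamini-Hochberg. The procedure was also run on simulated data with independent noise in each library, which cannot tell whether the spread between these libraries is technical. Alternatives covered pseudocounts of 0.1 and 0.5, filters, 2 scalings, 2-group fits, no trend, a 1.5-fold minimum, a replicate block and leaving out each library. Seed strings were searched in GENCODE 44 UTRs on hg19. The genes named were the members, SMAD4, KLF5, TFDP1 and, from each further list, up to 3 genes with the largest change against Parent among those called against both controls with both miR-4711-5p libraries outside all controls. ITGAV, BMPR1B and SMAD1 were added beside genes of the same kind. Members and lists were chosen with earlier results of these data known. Protein sequences and promoters were not used here. The values of 1 gene of the TGF-beta target list are not reported here.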

Additional observations from a re-analysis of the deposited data

How the results depend on the processing

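Over 16 alternatives to the fit, members called ranged from 1 to 5 against Parent (5 in the report), from 2 to 9 against NC-1 (8) and from 1 to 5 for NC-1 against Parent (3). The lowest counts came from a 1.5-fold minimum, which left 1, 2 and 1 members (ID1 against Parent, ID1 and TGFBR2 against NC-1, and TGFBR2 between the controls) and 7, 9 and 5 further pathway genes. Rescaling to a common sum gave 5 members and 29 further genes for NC-1 against Parent, and the fit of 2 groups gave 11 further genes there. Leaving out each library gave 3 to 4, 5 to 9 and 2 to 3 members and 19 to 28, 17 to 27 and 11 to 13 further genes, in the order of the comparisons above. Directions reversed only for differences that were not called. Under median-of-ratios scaling TGFB1 was at 0.0094 for NC-1 against Parent. Under the common sum the log2 fold changes became 0.0215 for TGFB1, 0.0769 for TGFBR1 and 0.0852 for SKIL against Parent, and 0.0792 for TGFB1 and 0.0482 for TGFBI in NC-1 against Parent. Without single libraries the range was -0.113 to 0.0347 for SKIL and -0.142 to 0.0552 for TGFBR1 against Parent, and -0.136 to 0.253 for SMAD7, -0.0478 to 0.0384 for TGFB1 and -0.0894 to 0.154 for TGFB2 in NC-1 against Parent. The causes were not tested. With a replicate block 5, 8 and 3 members and 27, 27 and 15 further genes were called. Same-numbered libraries did not deviate together (r = 0.061, 0.003 and -0.009 over genes), so the numbers are not taken to pair the libraries. Where 1 library was left, it was assumed to vary like the other groups. The small number of libraries limits all calls, and low members such as SMAD7 had the widest intervals.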
